A study of Arabidopsis thaliana with 6 samples.

Results

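Histone H3 is 1 of the 4 core histones that DNA wraps around in the nucleosome, and plants make it in a replication-coupled form, H3.1, and a replacement form, H3.3. The genes described here are the 5 H3.1 genes of Arabidopsis thaliana (AT1G09200, AT3G27360, AT5G10390, AT5G10400 and AT5G65360) and the 3 H3.3 genes HTR4 (AT4G40030), HTR5 (AT4G40040) and HTR8 (AT5G10980). They were chosen by identifier as members of these families, and make up 8 of the 32833 genes with a count. All 8 passed the filter on low counts that left 25364 genes for testing. RNA was sequenced from protoplasts, cells freed from their walls, of root tips of seedlings grown for 7 days. All plants had the genotype Col0/H2B-RFP/CDT1a-GFP, which is the Col-0 background with a red reporter on histone H2B and a green one on the replication licensing factor CDT1a, and no sample lacks the reporters. Protoplasts were sorted by DNA content into 3 gates, with 2n called G1, a content above 2n and below 4n called S, and 4n called G2M, at 2 libraries a gate and 6 in all. The labels name no separate plants or sorts for the replicates, so p-values measure only the spread between these libraries, which may be technical.

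H3.1 is placed behind the replication fork by the chromatin assembly complex CAF-1, and its genes are known in plants and animals as genes whose messages accumulate when DNA is copied. H3.3 is placed into chromatin outside replication by other chaperones, among them the HIRA complex, and its genes are used throughout the cell cycle and in cells that no longer divide. In Arabidopsis roots, H3.1 is known to be abundant in dividing cells of the meristem and to be lost from chromatin as cells leave the cycle, so the balance of the forms has been used as a mark of division potential. Cells at rest with the same DNA content as cycling cells fall into the same gate, and in bulk samples fewer cells of a type and less RNA per cell cannot be told apart.

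The families differ in gene structure and are close in coding sequence. Each H3.1 gene has a single exon, of 704 to 833 bases, while HTR4, HTR5 and HTR8 have 4, 5 and 3 exons. All 8 coding sequences are 411 bases long in the RefSeq annotation of TAIR10.1, where HTR4 also has a longer form. Coding sequences were 80.3 to 89.5% identical within H3.1 (10 pairs), 78.6 to 88.8% identical within H3.3 (3 pairs) and 74.0 to 80.3% identical between the families (15 pairs). At 12 coding positions all H3.1 genes shared 1 base and all H3.3 genes another. The stretch from coding base 67 to 126 holds 5 of the 12, and is shown because it is where the families can be told apart within a short run. It is printed 5′ to 3′ on the coding strand, which is the minus strand for all 8 genes, with the 5 family-specific positions in capitals.
AT1G09200 (H3.1), chr1:2972007-2972066: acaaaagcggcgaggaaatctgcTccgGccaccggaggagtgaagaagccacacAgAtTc
AT3G27360 (H3.1), chr3:10129744-10129803: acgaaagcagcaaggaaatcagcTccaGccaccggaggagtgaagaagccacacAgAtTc
AT5G10390 (H3.1), chr5:3269350-3269409: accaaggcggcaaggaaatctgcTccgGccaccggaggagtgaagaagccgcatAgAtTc
AT5G10400 (H3.1), chr5:3270763-3270822: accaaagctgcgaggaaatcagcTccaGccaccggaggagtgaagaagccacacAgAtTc
AT5G65360 (H3.1), chr5:26120384-26120443: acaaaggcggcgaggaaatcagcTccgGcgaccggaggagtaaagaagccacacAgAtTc
HTR4 (H3.3), chr4:18556210-18556351: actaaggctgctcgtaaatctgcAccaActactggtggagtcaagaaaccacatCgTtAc
HTR5 (H3.3), chr4:18558024-18558170: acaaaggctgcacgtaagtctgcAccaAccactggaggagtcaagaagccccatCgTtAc
HTR8 (H3.3), chr5:3472966-3473283: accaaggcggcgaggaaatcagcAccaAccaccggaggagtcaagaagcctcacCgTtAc
The 3 H3.3 stretches span an intron in the genome, so their coordinates cover more bases than are printed. Differences in the lower case letters fall within families as well as between them. Every run of 100 bases in the exons of the 8 genes occurs once in the genome, and 98.6 to 100% of runs of 50 bases do, while the read length is not given in the sources used here. AT3G27360 shares 328 of its 833 exon bases with AT3G27380 on the same strand, and how reads there were assigned is not given, so its counts are less certain than those of the other 7.

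Some members lie close together. AT5G10390 (chr5:3268847-3269594) and AT5G10400 (chr5:3270172-3270957) are neighbours 577 bases apart. HTR4 (chr4:18555532-18557106) and HTR5 (chr4:18557149-18558945) are neighbours 42 bases apart. AT5G65360 (chr5:26119859-26120581) lies 33 bases from HTR11, another H3 gene. AT1G09200 (chr1:2971571-2972334), AT3G27360 (chr3:10129105-10129937) and HTR8 (chr5:3472405-3473570) have no other member as their nearest gene.

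The 250 bases before each annotated transcript start were searched on both strands for letters known from plant histone promoters. The octamer CGCGGATC was found upstream of 3 of 5 H3.1 genes, 1 of 3 H3.3 genes and 2 of 8 H4 genes, against 0.135% of 27443 promoters of the same length. The hexamer ACGTCA was found upstream of 2 of 5 H3.1 genes, AT3G27360 and AT5G10400, and 1 of 3 H3.3 genes, HTR8, against 7.69% of promoters. The match of AT3G27360 lies in a stretch of 120 bases that all fall in exons of AT3G27380. For HTR4, 78 of the 120 bases before the start fall in exons of HTR5. The nonamer CATCCAACG was found in 0 of the 8, against 0.149% of promoters. A binding motif of E2F factors, searched as TTTCCCGC, TTTGGCGC, TTTCGCGC and TTTGCCGC, was also found in 0 of the 8 and in 2 of 8 H4 genes, against 1.40% of promoters. TATAAA was found in 4 of 5 H3.1 genes, all but AT1G09200, and in 0 of 3 H3.3 genes, against 47.4% of promoters, while CCAAT was found in all 8, against 46.0%. The TATAAA of AT5G10390 lay on the other strand, at 157 to 152 bases before the start. Those of AT3G27360, AT5G10400 and AT5G65360 lay on the strand of the gene, within 35 to 24 bases before the start. Stretches of 120 bases are printed for the 3 H3.1 genes with the octamer, for AT5G10390, whose levels differed from those of the other H3.1 genes, and for HTR5, the H3.3 gene with the octamer on the other strand. They read 5′ to 3′ towards the gene on the minus strand of TAIR10.1 from RefSeq, with the octamer and hexamer in capitals, and none of their bases lies in an exon of another gene.
AT1G09200, chr1:2972335-2972454: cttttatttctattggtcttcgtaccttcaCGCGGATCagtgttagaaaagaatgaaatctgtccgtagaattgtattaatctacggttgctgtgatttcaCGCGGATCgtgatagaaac
AT5G10400, chr5:3271015-3271134: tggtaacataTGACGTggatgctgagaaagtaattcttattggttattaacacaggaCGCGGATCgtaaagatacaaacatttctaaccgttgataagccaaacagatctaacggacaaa
AT5G65360, chr5:26120598-26120717: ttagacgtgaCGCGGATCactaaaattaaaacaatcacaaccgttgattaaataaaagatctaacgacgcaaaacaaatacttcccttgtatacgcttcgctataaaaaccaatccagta
AT5G10390, chr5:3269551-3269670: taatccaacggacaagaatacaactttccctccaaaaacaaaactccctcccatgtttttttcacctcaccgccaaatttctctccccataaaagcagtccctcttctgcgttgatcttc
HTR5, chr4:18558946-18559065: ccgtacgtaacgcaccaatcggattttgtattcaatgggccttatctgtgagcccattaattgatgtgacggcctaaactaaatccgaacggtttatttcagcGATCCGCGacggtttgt
AT1G09200 held the octamer at 90 to 83 and at 19 to 12 bases before the start, AT5G10400 at 120 to 113 and AT5G65360 at 126 to 119. In HTR5 the match lay at 17 to 10 bases before the start. The gene record of AT5G10390 runs to base 3269594, past its outermost annotated exon. Its stretch starts at that exon, at base 3269551, so part of it lies inside the gene record. A match is a description of letters and not of a bound site.

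**Figure D1:**
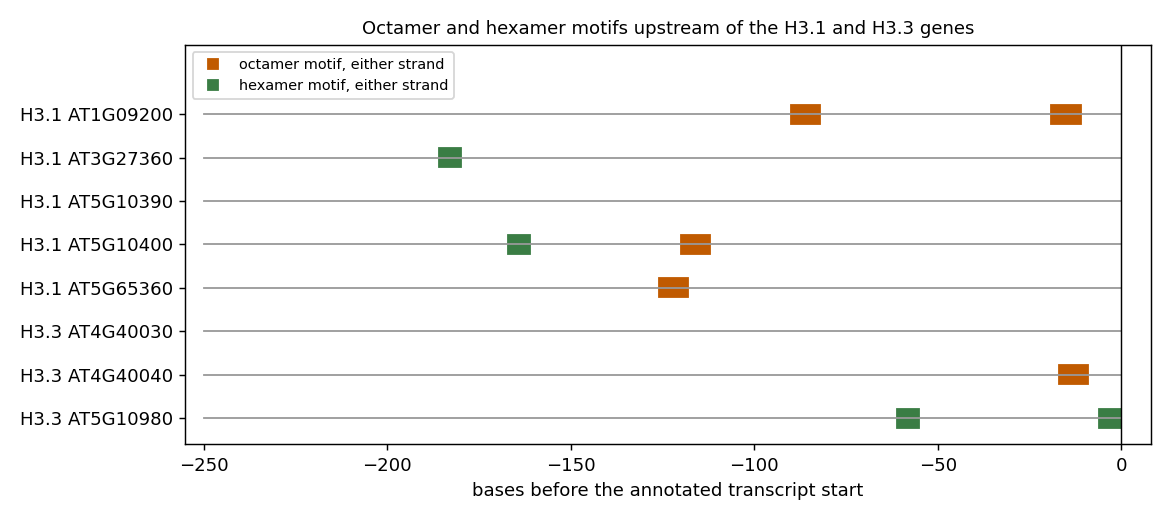
Positions of the octamer (orange) and hexamer (green) in the 250 bases before the annotated transcript start of each gene, in bases before the start. AT1G09200, AT5G10400, AT5G65360 and HTR5 (AT4G40040) hold the octamer, AT5G10390 and HTR4 (AT4G40030) hold neither motif.

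The G1 libraries held 128604597 and 61572560 counts in total, those of S 208406910 and 13114711, and those of G2M 15947211 and 31629519. The deepest and the shallowest library were thus both of the S gate, where 3 counts reach 0.0136 CPM in replicate 1 and 0.235 CPM in replicate 2. The H3.1 genes together had 2949 to 73928 counts per library and the H3.3 genes 13557 to 268543. Levels between gates are given in CPM (counts relative to the library's total after TMM scaling), and levels between genes in TPM, which divides by exon length. The gates were checked with marker lists. The 5 mitotic genes summed to 39.3 and 25.3 CPM in G1, 443 and 510 CPM in S and 631 and 583 CPM in G2M, so the S gate was far closer to G2M than to G1 in mitotic messages. The 5 replication genes were lowest in S, with 533 and 518 CPM in G1, 303 and 405 CPM in S and 536 and 583 CPM in G2M, so the gate labelled S was not the one richest in replication messages. The 4 root cap genes summed to 539 and 461 CPM in G1, 359 and 368 CPM in S and 109 and 100 CPM in G2M. The 5 root meristem markers summed to 101 and 104 CPM in G1, 144 and 180 CPM in S and 186 and 178 CPM in G2M. Among them WOX5 did not exceed 0.542 CPM. Leaf markers summed to no more than 3.84 CPM.

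Of the 5 H3.1 genes, 4 had their highest levels in G1, intermediate levels in S and their lowest in G2M. AT1G09200 stood at 149 and 154 CPM in the G1 libraries, at 118 and 126 CPM in the S libraries and at 68.8 and 90.3 CPM in the G2M libraries. AT5G10400 stood at 147 and 138 CPM in G1, at 104 and 107 CPM in S and at 56.2 and 79.4 CPM in G2M. In both genes the 3 gates did not overlap, and G2M replicate 1 was the lowest library. AT3G27360 stood at 63.5 and 61.4 CPM in G1, at 51.0 and 56.2 CPM in S and at 26.4 and 32.3 CPM in G2M. AT5G65360 stood at 74.2 and 66.8 CPM in G1, at 41.2 and 45.6 CPM in S and at 20.8 and 32.0 CPM in G2M. These genes showed the same order of gates, again without overlap, and AT5G65360 differed most between G1 and G2M. The pattern of both G1 libraries above both S libraries and both S above both G2M libraries was held by 4 of 5 H3.1 genes and 0 of 3 H3.3 genes, against 9.21% of all genes tested.

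AT5G10390 was the exception in H3.1. It stood at 46.9 and 50.6 CPM in G1, at 19.8 and 27.1 CPM in S and at 24.4 and 32.6 CPM in G2M. Both G1 libraries were above all others, while the S and G2M libraries overlapped, so this gene was not lower in G2M than in S. The share of all genes with both G1 libraries above all others was not computed. Its neighbour AT5G10400 was the more abundant of the pair in every library and fell in the G2M gate. The stretch printed upstream of AT5G10390 and the rest of its 250 bases hold neither the octamer nor the hexamer, which says only that those letters are absent from the window.

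Each of the 3 H3.3 genes had a pattern of its own. HTR5 stood at 543 and 537 CPM in G1, at 805 and 947 CPM in S and at 612 and 639 CPM in G2M. It was the only member of the 8 with both S libraries above all other libraries, a pattern shown by 7.69% of genes tested. HTR8 stood at 308 and 314 CPM in G1, at 311 and 345 CPM in S and at 188 and 214 CPM in G2M. Its G1 and S libraries overlapped and its G2M libraries lay below all others. HTR4 stood at 79.7 and 85.0 CPM in G1, at 97.8 and 107 CPM in S and at 103 and 119 CPM in G2M. Both G1 libraries of HTR4 were the lowest, while its S and G2M libraries overlapped. The shares of all genes with the orders of HTR8 and HTR4 were not computed. Both G2M libraries lay below both S libraries in 31.4% of genes tested and below both G1 libraries in 42%. Both G1 libraries lay below both S libraries in 30.2% and below both G2M libraries in 36.4%.

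**Figure D2:**
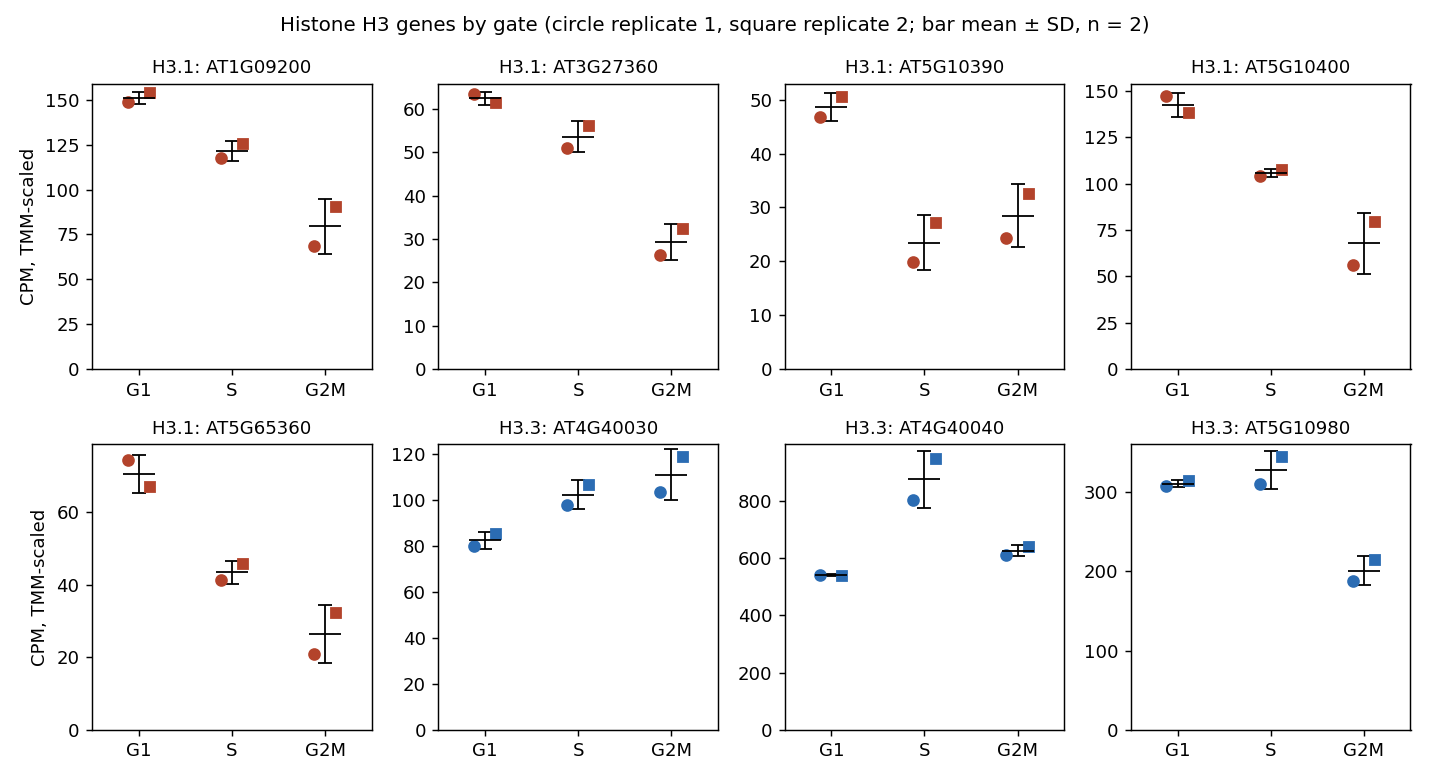
CPM of the 8 genes in the 6 libraries, by gate (circle for replicate 1, square for replicate 2, bar for the mean ± SD, n = 2), each panel on its own linear axis from 0. AT1G09200, AT3G27360, AT5G10400 and AT5G65360 step down through G1, S and G2M, AT5G10390 is low in both S and G2M, HTR5 (AT4G40040) is highest in S, HTR8 (AT5G10980) is lowest in G2M and HTR4 (AT4G40030) is lowest in G1.

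Per length, the H3.3 genes were the more abundant family in every library, and the gap was widest outside G1. The summed level of H3.1 was 1048 and 1049 TPM in G1, 769 and 766 TPM in S and 402 and 535 TPM in G2M, which is 73.2% of the G1 mean in S and 44.7% in G2M. The summed level of H3.3 was 1330 and 1372 TPM in G1, 1751 and 1841 TPM in S and 1117 and 1188 TPM in G2M, which is 133% of the G1 mean in S and 85.3% in G2M. The H3.1 sums of the 3 gates did not overlap, and neither did those of H3.3. CPM is TMM-scaled and does not divide by length, while the TPM used here divides by length and is not TMM-scaled. In CPM the H3.3 sums of G2M (903 and 972) and G1 (930 and 936) overlapped, so the lower H3.3 sum in G2M held on the TPM scale only. The ratio of the H3.1 sum to the H3.3 sum was 0.788 and 0.764 in the G1 pair of libraries, 0.439 and 0.416 in the S pair, and 0.360 and 0.450 in the G2M pair. Both G1 libraries lay above the other 4, and the S and G2M libraries overlapped, so the step in the ratio lay between G1 and the other gates. H3.1 messages made up 44.1% and 43.3% of both families together in the G1 pair, 30.5% and 29.4% in the S pair, and 26.5% and 31% in the G2M pair. Sums and ratios over the members are descriptions and were not tested.

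The order of members by mean TPM was stable at the top of H3.1 and changed below. AT1G09200 was the most abundant H3.1 gene in each gate, with 334 ± 12.5 TPM in G1, 271 ± 4.18 TPM in S and 161 ± 28.5 TPM in G2M (mean ± SD, n = 2), followed by AT5G10400 with 306 ± 9.57, 229 ± 9.16 and 134 ± 30.4 TPM in the same order of gates. In G2M these 2 genes did not differ beyond their spread, with libraries of 141 and 181 TPM beside 112 and 155 TPM. In G1, AT5G65360 came next with 165 ± 9.74 TPM, ahead of AT3G27360 with 127 ± 1.09 TPM and AT5G10390 with 117 ± 8.10 TPM, and the libraries of the last pair did not overlap. In S the place below them went to AT3G27360 with 109 ± 0.841 TPM, ahead of AT5G65360 with 102 ± 1.33 TPM, and AT5G10390 was last with 56.4 ± 9.09 TPM. In G2M the libraries of AT5G10390, AT5G65360 and AT3G27360 overlapped, with means of 62.6, 56.5 and 54.5 TPM. AT5G10390 made up 10.6% and 11.7% of the H3.1 sum in the G1 pair, 6.5% and 8.21% in the S pair, and 13.5% and 13.3% in the G2M pair, so its share was lowest in S.

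Within H3.3 the leading gene changed between gates. HTR8 had 642 ± 18.8 TPM in G1, 681 ± 9.25 TPM in S and 381 ± 29.2 TPM in G2M, while HTR5 had 604 ± 4.82, 984 ± 54.0 and 642 ± 9.98 TPM in the same order. HTR8 was above HTR5 in both G1 libraries and below it in the other 4. HTR4 was the least abundant in every gate, with 105 ± 6.30 TPM in G1, 131 ± 0.176 TPM in S and 130 ± 10.9 TPM in G2M. HTR5 made up 45.1% and 44.2% of the H3.3 sum in the G1 pair, 54.0% and 55.5% in the S pair, and 56.9% and 54.7% in the G2M pair.

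**Figure D3:**
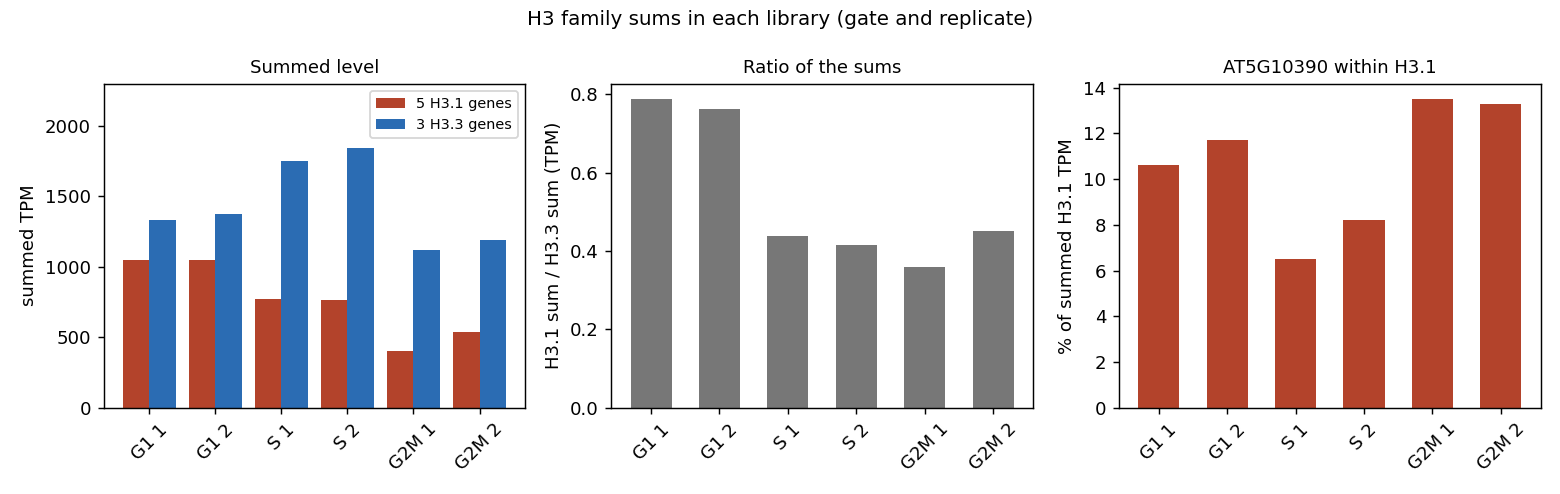
Summed TPM of the 5 H3.1 and 3 H3.3 genes, the ratio of the sums, and the percent of H3.1 TPM from AT5G10390, with 1 bar or pair of bars per library and linear axes from 0. The ratio is 0.788 and 0.764 in the G1 libraries and no more than 0.450 in the other 4, and AT5G10390 has its lowest shares, 6.5% and 8.21%, in S.

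The comparison of S with G1 set cells with a DNA content between 2n and 4n against cells with 2n. AT5G10390 and AT5G65360, both H3.1, fell, and HTR5 rose. AT5G10390 had the largest difference of the 8 (log2 fold change −1.08 ± 0.19, SE, edgeR adjusted p = 0.00134), followed by AT5G65360 (−0.71 ± 0.18, adjusted p = 0.0136) and HTR5 (0.70 ± 0.12, adjusted p = 0.00130). Thus 2 of 5 H3.1 genes were called lower, against 7.28% of genes tested, and 1 of 3 H3.3 genes was called higher, against 13.9%. The other H3.1 genes had differences of −0.43 ± 0.15 for AT5G10400 (adjusted p = 0.0639), −0.32 ± 0.14 for AT1G09200 (0.139) and −0.22 ± 0.14 for AT3G27360 (0.324), and were not called, although both S libraries lay below both G1 libraries in all 5 genes, an order held by 25% of genes tested. HTR4 (0.31 ± 0.13, adjusted p = 0.108) and HTR8 (0.08 ± 0.12, adjusted p = 0.758) were not called. The median log2 fold change was −0.43 over H3.1 and 0.31 over H3.3, against 0.08 over all genes tested. The smallest p that an exact permutation test allows with 2 libraries against 2 is 0.333, and the calls therefore depend on spread that edgeR estimates over many genes. AT5G65360 lost its call without G1 replicate 1 (adjusted p = 0.101) or S replicate 1 (adjusted p = 0.0524) and with offsets for GC content and length, where its difference was −0.39 and that of AT3G27360 turned to 0.32, whereas all 3 H3.3 genes then rose and AT5G10390 kept its call.

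The comparison of G2M with S asked what differs once DNA content reaches 4n. All H3.1 genes but AT5G10390 fell, as did HTR5 and HTR8. Within H3.1 the log2 fold changes were −0.86 ± 0.15 for AT3G27360 (edgeR adjusted p = 0.00178), −0.70 ± 0.18 for AT5G65360 (0.0199), −0.63 ± 0.15 for AT5G10400 (0.0135) and −0.61 ± 0.14 for AT1G09200 (0.0107). AT5G10390 differed by 0.31 ± 0.19 (adjusted p = 0.258) and was not called, except without S replicate 2, where it was called higher at 0.58 (adjusted p = 0.0253). In H3.3, HTR8 fell by 0.71 ± 0.12 (adjusted p = 0.00196) and HTR5 by 0.48 ± 0.12 (adjusted p = 0.0143), while HTR4 differed by 0.12 ± 0.13 (adjusted p = 0.515), a difference of −0.02 on recomputed TPM. The counts were 4 of 5 and 2 of 3 lower, against 10.1% of genes tested that were called lower, 9.46% called higher and 19.6% in either direction, with medians of −0.63 in H3.1 and −0.48 in H3.3, against −0.10 over all genes. Both G2M libraries lay below both S libraries in 4 of 5 H3.1 and 2 of 3 H3.3 genes, against 31.4% of genes tested, and above them in 0 of the 8, against 28.6%. AT5G65360 was the only H3.1 gene called lower in S than in G1 and also lower in G2M than in S, as were 2.22% of genes tested. Without G2M replicate 1, the library with the lower H3.1 levels, 0 of these 6 calls remained and the 4 H3.1 differences ranged from −0.69 to −0.38, and without G2M replicate 2 HTR5 was not called.

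The comparison of G2M with G1 set the ends of the series against each other, and here all 5 H3.1 genes fell. AT5G65360 fell by 1.40 ± 0.18 on the log2 scale (edgeR adjusted p = 5.74e-05), AT3G27360 by 1.08 ± 0.14 (6.55e-05), AT5G10400 by 1.07 ± 0.15 (0.000131), AT1G09200 by 0.92 ± 0.14 (0.000193) and AT5G10390 by 0.77 ± 0.18 (0.00488). The count of 5 of 5 stands against 17.1% of genes tested that were called lower, 23.2% called higher and 40.3% in either direction. Both G2M libraries lay below both G1 libraries in all 5 H3.1 genes and in HTR8, against 42% of genes tested, and above them in HTR4 and HTR5, against 36.4%. The H3.3 genes went both ways, with HTR8 lower at −0.63 ± 0.12 (adjusted p = 0.00106), HTR4 higher at 0.43 ± 0.13 (0.0156) and HTR5 not called at 0.21 ± 0.12 (0.173), where upper-quartile scaling gave −0.007. The medians were −1.07 in H3.1 and 0.21 in H3.3, against −0.14 over all genes. With GC and length offsets AT3G27360 and AT5G10390 were not called and the median H3.1 difference was −0.64, against −1.07, while AT1G09200, AT5G10400 and AT5G65360 were called under all 15 alternatives. Without G2M replicate 1 AT5G10390 (adjusted p = 0.109) and HTR8 (0.0607) lost their calls, and HTR4 lost its call with upper-quartile factors, when either G1 library was left out and without G2M replicate 2.

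The comparison of S with the mean of G1 and G2M asked whether a gene stands apart in the middle gate. It shares all its libraries with the comparisons above. No H3.1 gene was called higher in S, and AT5G10390 fell by 0.69 ± 0.17 (edgeR adjusted p = 0.0259). The other 4 H3.1 genes differed by 0.32 ± 0.12 for AT3G27360 (adjusted p = 0.142), 0.15 ± 0.12 for AT1G09200 (0.499), 0.10 ± 0.13 for AT5G10400 (0.687) and −0.003 ± 0.16 for AT5G65360 (0.992). HTR5 rose by 0.59 ± 0.10 (adjusted p = 0.00457) and HTR8 by 0.39 ± 0.10 (0.0387), and HTR4 differed by 0.09 ± 0.11 (0.650). HTR8 was not called in S versus G1 (0.08 ± 0.12, adjusted p = 0.758), so its difference here came mainly from its low G2M level. AT5G10390 was not called in G2M versus S (0.31 ± 0.19, adjusted p = 0.258), so its difference here came mainly from its high G1 level. Thus 1 of 5 H3.1 genes was called lower, against 2.18% of genes tested, and 2 of 3 H3.3 genes higher, against 5.03% and 7.21% in either direction, with medians of 0.10 and 0.39 beside 0.13 over all genes. The call of HTR5 was lost only without G2M replicate 1 (adjusted p = 0.0580), that of HTR8 without any of 5 libraries (all but S replicate 1), and that of AT5G10390 without any of 4 libraries and with GC and length offsets, under which AT3G27360 was instead called higher at 0.49.

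**Figure D4:**
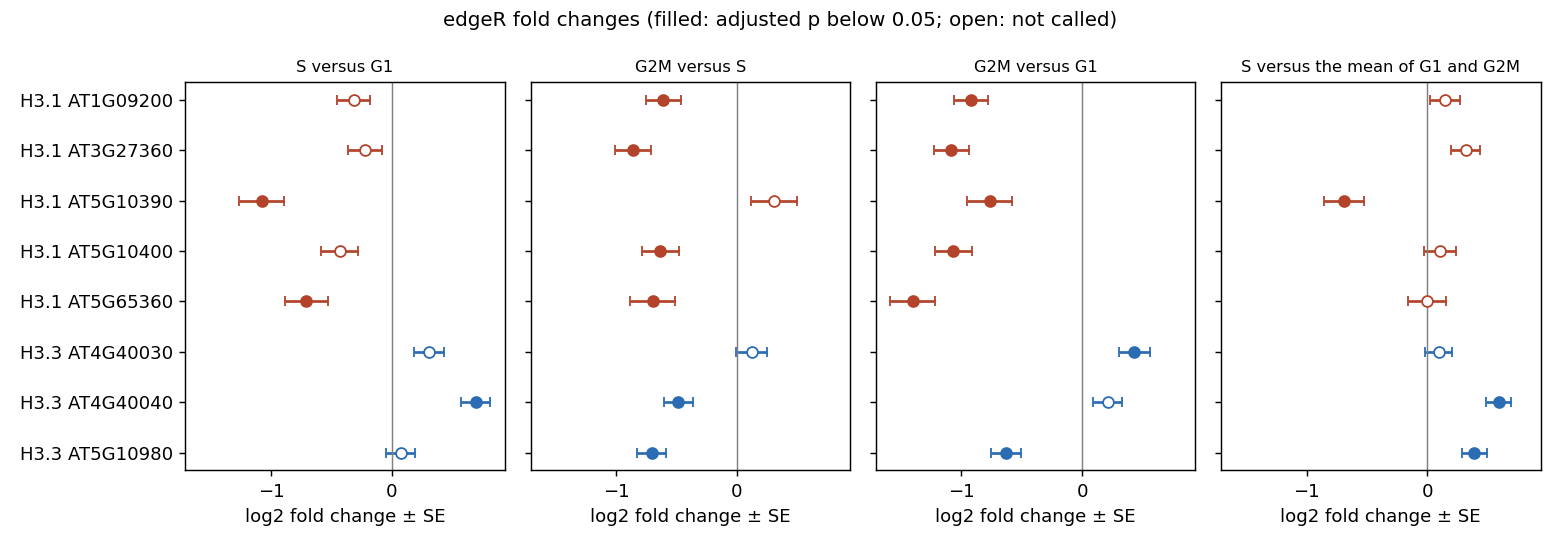
Log2 fold changes (point ± SE) of the 8 genes in the 4 comparisons, from 1 edgeR fit of 6 libraries, filled where the adjusted p is below 0.05. All 5 H3.1 genes lie left of 0 and filled for G2M versus G1, HTR5 (AT4G40040) lies right and filled for S versus G1, and AT5G10390 is the only H3.1 gene right of 0 for G2M versus S.

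H4, the partner of H3 in the nucleosome, has 8 genes in the list used here, and they were set beside H3.1. Of the 8 H4 genes, 3 fell in S versus G1 (AT3G45930, AT3G46320 and AT5G59690), against 7.28% of genes tested. In G2M versus S 5 fell (AT1G07820, HIS4, AT3G53730, AT5G59690 and AT5G59970), against 10.1%, and in G2M versus G1 all 8 fell, against 17.1%, while 0 rose in these comparisons. Their medians were −0.26, −0.68 and −0.92 in that order, beside −0.43, −0.63 and −1.07 in H3.1. AT3G53730 was the only H4 gene called in S against the mean of G1 and G2M, at 0.47 ± 0.12 (edgeR adjusted p = 0.0325), with 65.1 and 71.0 CPM in G1, 67.9 and 64.5 CPM in S and 30.2 and 36.8 CPM in G2M. Its call held in 9 of 15 alternatives and was lost with upper-quartile factors and without any of 5 libraries (all but S replicate 2). AT1G07820 had the next largest difference there, 0.42 ± 0.12 (adjusted p = 0.0539), and was called in 8 of 15 alternatives. The ratio of summed H3.1 to summed H4 CPM was 0.744 and 0.703 in G1, 0.638 and 0.670 in the S pair, and 0.659 and 0.726 in the G2M pair, a narrower range than that of H3.1 to H3.3. With GC and length offsets 0 H4 genes were called in S versus G1, where their median was 0.13, and 5 were in G2M versus G1. The 3 calls in S versus G1 became 1 without either G1 library, and the 5 in G2M versus S became 2 without G2M replicate 1.

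The 6 remaining H3 genes include the centromeric form HTR12, also known as CENH3, the pollen gene MGH3, HTR11 and 3 genes that the annotation gives only by identifier. Of the 6, 2 were called lower in S versus G1, 1 in G2M versus S and 3 in G2M versus G1. In the same order, 7.28%, 10.1% and 17.1% of genes tested were called lower. AT1G75600, which RefSeq annotates with a histone H3 domain, stood at 35.0 and 38.0 CPM in G1, at 9.59 and 14.7 CPM in S and at 3.0 and 4.59 CPM in G2M. Its gates did not overlap, with an order from G1 down to G2M held by 9.21% of genes tested. It fell in S versus G1 (−1.63 ± 0.23, edgeR adjusted p = 0.000337), in G2M versus S (−1.59 ± 0.25, 0.00119) and in G2M versus G1 (−3.23 ± 0.25, 9.54e-07). Each of these log2 fold changes was larger in size than that of any H3.1 gene. HTR11, the neighbour of AT5G65360, stood at 7.28 and 6.27 CPM in G1, at 1.86 and 1.73 CPM in S and at 1.53 and 1.54 CPM in G2M. It fell in S versus G1 (−1.91 ± 0.36, adjusted p = 0.00220) and in G2M versus G1 (−2.14 ± 0.37, 0.000460), and differed by −0.23 ± 0.37 in G2M versus S (0.684). AT1G13370 was the third gene called lower in G2M versus G1 (−1.89 ± 0.62, adjusted p = 0.0272), at no more than 2.36 CPM in any library, a call that held in 9 of 15 alternatives and was lost with GC and length offsets and when any G1 or G2M library was left out. HTR12 stood at 13.3 and 12.2 CPM in G1, at 15.7 and 19.4 CPM in S and at 13.9 and 13.9 CPM in G2M. Both its S libraries were above the other 4, an order held by 7.69% of genes tested. It was not called in S versus G1 (0.44 ± 0.18, adjusted p = 0.110) or against the mean of G1 and G2M (0.38 ± 0.16, 0.171).

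**Figure D5:**
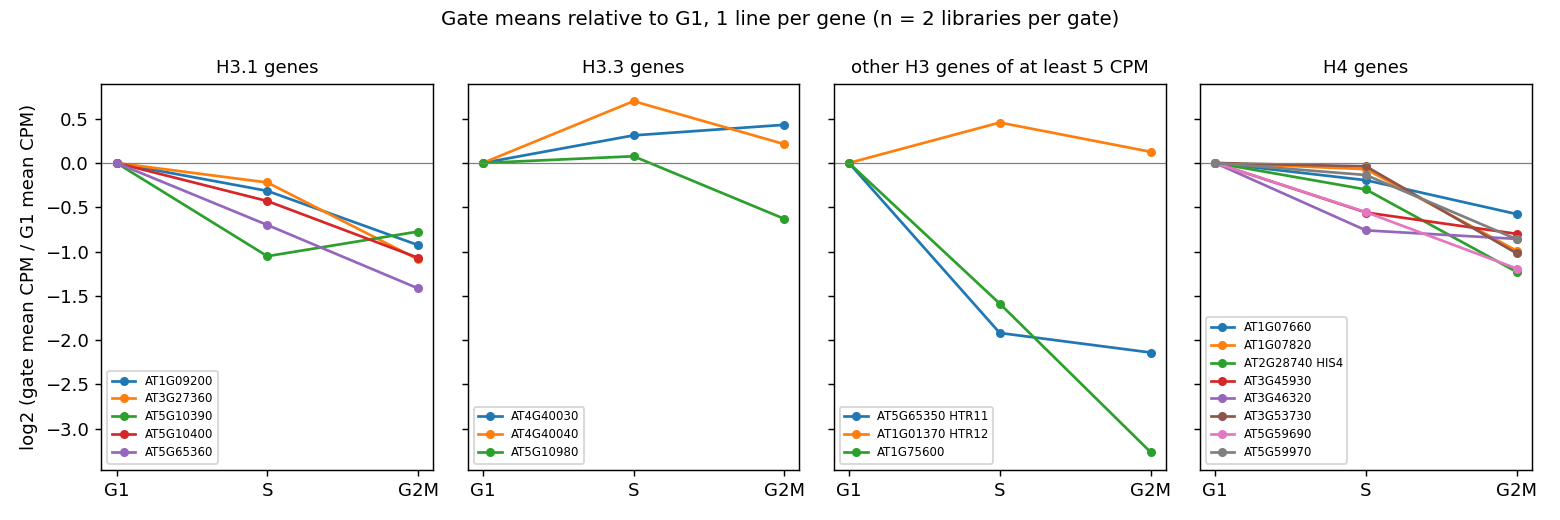
Log2 of the gate mean CPM over the G1 mean CPM for the H3.1, H3.3, other H3 (those of at least 5 CPM in G1 or S) and H4 genes, 1 line per gene, n = 2 libraries per gate. All H3.1 and H4 lines end below 0 in G2M, H3.3 lines end on both sides, and AT1G75600 ends lowest.

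Genes that place H3 into chromatin were listed by the form they handle. In the CAF-1 list of 3 subunits, FAS1 stood at 27.3 and 22.4 CPM in G1, at 7.63 and 10.04 CPM in S and at 19.1 and 17.9 CPM in G2M, and FAS2 at 7.42 and 7.17, 3.27 and 2.35, and 6.0 and 7.24 CPM in the same order. Both subunits were lowest in the S libraries, without overlap, and the share of all genes with that order was not computed. Against the mean of G1 and G2M, FAS1 fell by 1.31 ± 0.18 (edgeR adjusted p = 0.000934) and FAS2 by 1.27 ± 0.27 (0.0139), so 2 of 3 were called lower, against 2.18% of genes tested. Both also fell in S versus G1 (−1.53 and −1.33), against 7.28% called lower, and rose in G2M versus S (1.10 and 1.20), against 9.46% called higher. MSI1, the third subunit, which also serves other complexes, rose in S versus G1 (0.57 ± 0.13, adjusted p = 0.00658) and in G2M versus G1 (0.68 ± 0.13, 0.000929). FAS2 lost its call against the mean without G2M replicate 2, and its call in G2M versus S without either G2M library and with limma. MSI1 lost its call in S versus G1 without G1 replicate 2.

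Of 5 genes for H3.3 deposition, 3 rose in S versus G1, against 13.9% of genes tested, and 4 in G2M versus G1, against 23.2%, and 0 fell in any comparison. HIRA, the scaffold of its complex, stood at 12.1 and 10.5 CPM in G1, at 15.1 and 23.1 CPM in S and at 29.9 and 23.2 CPM in G2M. Its G1 libraries were the lowest, an order whose share of all genes was not computed. It rose by 0.73 ± 0.22 in S versus G1 (edgeR adjusted p = 0.0293) and by 1.23 ± 0.22 in G2M versus G1 (0.000581). UBN2 (AT1G77310) and CABIN1 (AT4G32820), partners in the complex, also rose in S versus G1 (0.82 ± 0.22, adjusted p = 0.0197, and 0.80 ± 0.17, 0.00486) and in G2M versus G1 (1.01 ± 0.22, 0.00299, and 0.71 ± 0.17, 0.00501). UBN1 (AT1G21610) rose only in G2M versus G1 (0.55 ± 0.16, adjusted p = 0.0169), and ATRX, another H3.3 factor, was not called. No member was called in G2M versus S or against the mean of G1 and G2M, and the largest differences against that mean were 0.45 ± 0.15 for CABIN1 (0.0869) and 0.31 ± 0.19 for UBN2 (0.359). The calls of the H3.3 deposition list in S versus G1 numbered 0 to 3 over the 15 alternatives, HIRA keeping its call in 7 of them, UBN2 in 9 and CABIN1 in 12. In G2M versus G1 they numbered 2 to 5, with HIRA and UBN2 called in all 15, CABIN1 in 12 and UBN1 in 8, and UBN1 and CABIN1 were not called with GC and length offsets. The lowest differences over the alternatives were 0.18 for UBN1 and 0.28 for CABIN1.

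Among 3 chaperones that hand over either form, AT4G37210, a tetratricopeptide repeat-like protein in the annotation, rose by 0.97 ± 0.14 in S versus G1 (edgeR adjusted p = 0.000494) and by 1.07 ± 0.14 in G2M versus G1 (7.08e-05). It stood at 38.9 and 39.9 CPM in G1, at 69.2 and 85.4 CPM in S and at 89.4 and 76.5 CPM in G2M. ASF1B rose in G2M versus S (0.53 ± 0.15, adjusted p = 0.0263), a call lost without S replicate 1 or either G2M library, and ASF1A was not called. Of 3 genes whose proteins act on H3.1, ATXR6, a methyltransferase of H3.1, stood at 20.3 and 26.4 CPM in G1, at 7.43 and 8.55 CPM in S and at 13.8 and 19.5 CPM in G2M. Its S libraries were the lowest, an order whose share of all genes was not computed. It fell by 1.33 ± 0.20 against the mean of G1 and G2M (adjusted p = 0.00190). It had fallen in S versus G1 (−1.56) and risen in G2M versus S (1.09), where the call was lost without G2M replicate 2. In that order, 2.18% and 7.28% of genes tested were called lower and 9.46% higher. ATXR5, a related methyltransferase, rose in G2M versus G1 (0.62 ± 0.16, adjusted p = 0.00892), a call lost with upper-quartile factors and without G1 replicate 1 or either G2M library, and TSK, which binds new H3.1, was not called in any comparison (−0.03 ± 0.13 against the mean, 0.930).

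The root cap list moved with H3.1 across the gates. Of its 4 genes, 3 fell in S versus G1, 4 in G2M versus S and 4 in G2M versus G1, against 7.28%, 10.1% and 17.1% of genes tested in the same order, with medians of −0.69, −1.61 and −2.27, and the lowest level of any of them was 6.0 CPM, for FEZ in G2M. SMB, a regulator of root cap maturation, stood at 20.6 and 14.9 CPM in G2M, against 111 and 78.5 CPM in G1. NAC015 kept its call in S versus G1 in 8 of 15 alternatives, and FEZ its call in G2M versus S in 12. In S against the mean of G1 and G2M, 2 of the 4 root cap genes were called higher, against 5.03% of genes tested, with a median of 0.46. In S versus G1 0 of the 4 were called higher, so these 2 differences came from low G2M levels. Of the 5 H3.1 genes 0 were called higher there, with a median of 0.10. The root meristem list went the other way from H3.1. Of its 5 genes, 2 were called higher in S versus G1, 1 in G2M versus S and 3 in G2M versus G1. In the same order, 13.9%, 9.46% and 23.2% of genes tested were called higher. In these comparisons 0 of the 5 were called lower. The part of root cap or meristem cells in the H3.1 differences was not tested. Sieve element markers were also highest in G1 in sum, with 51.2 and 47.7 CPM in G1, 18.7 and 11.9 CPM in S and 8.53 and 9.68 CPM in G2M. NAC045 and NAC086 stood below 1 CPM in G2M. Of the 3 markers, 2 fell in S versus G1, 1 in G2M versus S and 3 in G2M versus G1, against the shares given for the root cap list. APL, at 16.2 and 20.8 CPM in G1 and 16.7 and 11.3 CPM in S, overlapped and was not called in S versus G1. The mitotic list rose where HTR5 rose in S versus G1, with 5 of 5 genes higher, against 13.9% of genes tested. In G2M versus S, where HTR5 fell, 0 of 5 were called, against 9.46% called higher and 10.1% called lower. The 5 differences there ran from 0.08 to 0.51, and the gene with the largest was called higher in 8 of 15 alternatives. The part of mitotic cells in the level of HTR5 was not tested.

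The genes most alike in pattern were sought among 5455 nuclear genes with a symbol and a mean of at least 10 CPM, by Pearson's r of log2 CPM with the family's mean log2 CPM over the 6 libraries. For H3.1 they were MES5 (r = 0.995), bZIP1 (0.993) and ERF1-1 (0.992), and 8.05% of candidates had an r above 0.9, so the pattern was a common one. For H3.3 they were TKI1 (0.987), NAC062 (0.980) and GLTP1 (0.979), and 0.752% of candidates were above 0.9. The H3.3 mean joins genes whose patterns differed, and likeness to each single member was not computed. Genes given only by identifier, among them all H4 genes but HIS4, were not candidates. MES5 stood at 36.2 and 32.6 CPM in G1, at 21.2 and 24.7 CPM in S and at 14.5 and 19.3 CPM in G2M. TKI1 stood at 20.5 and 22.6 CPM in G1, at 28.1 and 31.7 CPM in S and at 20.9 and 22.8 CPM in G2M. These correlations describe 6 libraries that share 3 gates.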

How the data were processed

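The values used are counts of reads per gene as deposited, in 6 libraries of 3 gates, with 1 column per library. Per the labels' protocols, cDNA came from a SMART-Seq v4 kit and sequencing libraries from the Ovation Ultralow System V2. Trimmomatic 0.39, HISAT2 2.2.1, featureCounts and the TAIR10 genome are named in the submitters' processing notes. Tool options, strand setting and treatment of reads with several matches were not given in the sources used here. A deposited table named TPM was not used, since its columns do not sum to a common total.

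Tests used edgeR 4.0.16 and R 4.3.3 (TMM factors, the default filterByExpr filter, 1 quasi-likelihood fit of the 3 gates), with Benjamini-Hochberg adjustment over 25364 genes per comparison and a threshold of 0.05. The 4 comparisons share libraries. Each SE was computed as the absolute log2 fold change over the root of F. TPM was recomputed from the counts and exon lengths of TAIR10.1 over 32548 nuclear genes. The nuclear sequence of TAIR10.1 was taken to be that of TAIR10, without a check. Pairs of libraries within a gate differed by more than sampling noise (chi-square per degree of freedom 30.0, 15.2 and 7.30 for the G1, S and G2M pairs). Since no molecular identifiers were counted, the floor of 3 counts covers counting error only.

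The members and lists were chosen with earlier results of these data known. Beside the 8 members, a rule named the 2 genes per list of other H3 genes, H4 genes, chaperones and H3.1 readers and writers with the largest difference between S and the mean of G1 and G2M, every gene in a count of 5 or fewer, and the 3 genes most alike in pattern to each family. SMB, FEZ, NAC015, WOX5, APL, NAC045 and NAC086 were named after their values were seen. The 15 alternatives were GC and length offsets (mgcv 1.9.3), a replicate block, both together, upper-quartile factors, no filter, no plastid or mitochondrial genes, libraries thinned to 13114711 counts, leaving out each library, DESeq2 1.42.0, and limma 3.58.1 on log2(TPM + 1).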

Additional observations from a re-analysis of the deposited data

How the results depend on the processing

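Of 480 recomputed differences of the 8 genes, 412 kept their direction and their side of the threshold, 33 kept the direction but lost the call, 19 gained one and 16 turned sign. AT5G10390 and HTR5 in S versus G1, and AT1G09200, AT5G10400 and AT5G65360 in G2M versus G1, were called under all 15 alternatives. None of the turned values was called. For AT5G65360 in S versus the mean of G1 and G2M (main −0.003) they were 0.14 with GC and length offsets, 0.0064 with the replicate block, 0.14 with both, 0.030 thinned and 0.093 with limma, and leaving out a library gave −0.16 to 0.17. The others were AT3G27360 in S versus G1 (0.32 with GC and length offsets, 0.31 with the block as well), HTR8 in S versus G1 (−0.11 with upper-quartile factors, −0.029 without S replicate 2 and up to 0.15 without another library), HTR4 in G2M versus S (−0.017 with limma), HTR5 in G2M versus G1 (−0.0069 with upper-quartile factors), AT5G10400 in S versus the mean (−0.032 without G2M replicate 1, up to 0.23 without another library) and HTR4 there (−0.0066 without S replicate 2, up to 0.15).

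In S versus G1, 2 H3.1 genes were called, against 1 with GC and length offsets, 1 with the replicate block and those offsets, 5 with upper-quartile factors and 4 with DESeq2, and 1 to 2 when leaving out a library. It was 3 H3.1 genes with no filter, with thinned libraries and with limma, and AT5G10400 was called in 5 of 15 alternatives. For H3.3 the count was 1, against 3 with offsets, 2 with block and offsets and 2 with limma. In G2M versus S, leaving out a library gave 0 to 5 for H3.1 (main 4, with 4 lower and 1 higher, AT5G10390, without S replicate 2) and 0 to 2 for H3.3 (main 2), with 0 for both without G2M replicate 1. In G2M versus G1, the 5 H3.1 calls became 3 with offsets, 3 with block and offsets and 4 to 5 without a library, and the 2 H3.3 calls 1 with upper-quartile factors and 1 to 3 without a library. In S versus the mean, the single H3.1 call became 0 with block and offsets, 2 with limma and 0 to 1 without a library, and with offsets it was AT3G27360, higher, in place of AT5G10390. The 2 H3.3 calls there became 0 to 2. The ratio of H3.1 to H3.3 with summed CPM averaged 0.509 in G1, 0.267 in S and 0.246 in G2M, against 0.776, 0.427 and 0.405 with TPM.

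Over all genes, leaving out a library gave 2753 to 6276 calls in S versus G1 (main 5373), 1472 to 9378 in G2M versus S (4960), 6679 to 12720 in G2M versus G1 (10226) and 702 to 4676 in S versus the mean (1829). Upper-quartile factors moved the median of all genes to −0.10 in S versus G1 (main 0.08) and −0.36 in G2M versus G1 (main −0.14). With them, 2399 genes were higher and 3026 lower in S versus G1 (main 3526 and 1847), 4443 and 5650 in G2M versus G1 (main 5882 and 4344), and 1071 and 994 in S versus the mean (main 1277 and 552), where DESeq2 gave 1518 and 1214. With limma 1660 were higher and 3270 lower in G2M versus S (main 2399 and 2561). Replicate numbers did not pair the libraries (correlations of deviations −0.05, 0.03 and −0.06 over 25364 genes). With the replicate block the calls were 3336 higher and 1680 lower in S versus G1, 2113 and 2135 in G2M versus S, 5709 and 3951 in G2M versus G1 and 1063 and 462 in S versus the mean, with the same numbers of H3.1 and H3.3 calls as without it. The causes of these changes were not tested. In the shallowest library, S replicate 2, 3 counts reach 0.235 CPM.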
